A study of Mus musculus with 12 samples.

Results

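The genes described here are the 3 Slit ligands (Slit1, Slit2 and Slit3) and the 4 Robo receptors (Robo1, Robo2, Robo3 and Robo4), 7 of the 22180 genes with a probe set annotated to a single symbol on the array. The family was chosen by the values of Slit2 in the 3 groups, which were high on the arrays labelled KO/mock and low on those labelled KO/ERRb-wt. For Slit2 the values of the 3 groups are therefore a description with no test, while the other 6 members were tested. Each member was read by 1 probe set, so splice forms were not separated. The study compared 3 groups of mouse K3 embryonic stem (ES) cells, each with 2 clones and 2 arrays a clone, 4 arrays a group. KO/ERRb-wt (clones 12-1 and 12-3) was made by transducing ERRb knockout cells with a lentivirus that expresses ERRb. KO/mock (clones 8-3 and 8-4) is the knockout in its mock form, and WT/mock (clones 5-2 and 5-5) is the wild type in its mock form. ERRb, encoded by Esrrb, is an orphan nuclear receptor of the ES cell transcription factor network. All 12 cultures were kept in N2B27 medium with the inhibitors CH99021 and PD0325901 and with LIF, and then spent 3 days in that medium with both inhibitors and doxycycline, a step for which LIF is not listed. The lesion in Esrrb, the part of the virus that responds to doxycycline and what the mock arms received are not described in the sources used here. The arrays of a clone are called biological replicates, and no label says whether they came from separate cultures. The test gave arrays of a clone 1 correlation for all probe sets, 0.0286, so they counted almost as separate samples. The p-values below therefore measure mainly the spread among arrays of these lines, and little of that between clones. With clone averages, calls over all genes were 3 in KO/mock minus WT/mock, 0 in KO/ERRb-wt minus KO/mock and 1501 in KO/ERRb-wt minus WT/mock.

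Slit proteins are large secreted ligands that bind Robo receptors, single-pass membrane proteins of the immunoglobulin superfamily, with heparan sulfate as a co-factor. Binding recruits GTPase-activating proteins and adaptors to the Robo tail, which changes actin dynamics and repels growing axons and migrating cells, as at the midline of the nervous system. Mammalian Robo3 has diverged from Robo1 and Robo2 in how it responds to Slits, and Robo4 is known mainly from blood vessels. Slit2 and Slit3 each carry a gene of the microRNA miR-218 in an intron.

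The mature miR-218 products are shown first because they come from the Slit2 and Slit3 loci and have their own probe sets. All are RefSeq sequences on build GRCm38.p6, written 5′ to 3′ with the seed (bases 2 to 8) in capitals. Mir218-1 lies at chr5:48223966-48223986 and Mir218-2 at chr11:35616840-35616860 (plus strand, positions of the 5p product), and both give the same 5p sequence. The 3p products lie at chr5:48224005-48224026 and chr11:35616882-35616903 on the plus strand.
mmu-miR-218-5p: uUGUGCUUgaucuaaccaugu
mmu-miR-218-1-3p: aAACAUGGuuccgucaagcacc
mmu-miR-218-2-3p: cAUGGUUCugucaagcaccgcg
The 5p products of the 2 loci share the seed UGUGCUU, so a target cannot tell them apart, whereas the 3p seeds AACAUGG and AUGGUUC differ.

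The arrays had medians of 5.00 to 5.07 on the log2 scale. Esrrb itself went against the labels. Its values were 6.99, 6.76, 6.50 and 6.68 on the arrays labelled KO/ERRb-wt, 7.48, 8.00, 7.74 and 7.41 on those labelled KO/mock, and 7.38, 7.38, 7.39 and 7.38 on those labelled WT/mock. KO/ERRb-wt was lower than KO/mock by a log2 difference of -0.93 ± 0.13 (SE, adjusted p = 0.00436) and lower than WT/mock by -0.65 ± 0.13 (adjusted p = 0.00557). KO/mock was not distinguished from WT/mock (0.28 ± 0.13, adjusted p = 0.324). With the arrays of each clone averaged, the first of these calls ended (adjusted p = 0.137), and without clone 12-3 the second did (adjusted p = 0.0591). The probe set may lie outside the lesion and may not read the viral transcript, so it may check neither label, and every direction below belongs to the arrays as labelled. ES cell markers were high on every array. The mean of the 10-gene ES list was 9.74 to 9.82 on KO/ERRb-wt arrays, 9.82 to 9.86 on KO/mock arrays and 9.84 to 9.98 on WT/mock arrays, with Dppa5a, near 5, the exception. Of the 10 genes, 2 fell in KO/mock minus WT/mock, 3 fell in KO/ERRb-wt minus KO/mock, and 4 fell and 1 rose in KO/ERRb-wt minus WT/mock (20%, 30% and 50%, beside 5.58%, 4.40% and 20.8% of all genes). Named after their values were seen, Klf4 (-0.78, adjusted p = 2.59e-05), Nanog (-0.40, 0.000195) and Fgf4 (-0.44, 0.000293), all pluripotency-associated, fell in KO/ERRb-wt against WT/mock. These calls held without any array or clone. The list also went the other way in that comparison, with 1 gene called higher and a largest rise of 0.41. The part of the ES genes in the Slit and Robo values was not tested. No array stood apart over all probe sets: the SD of its difference from the mean of the other 3 arrays of its group was 0.218 to 0.267.

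Slit2 (chromosome 5), a floor-plate repellent in the developing nervous system, differed between groups more than any other member. Slit2 was the gene by which the family was chosen, so this lead and the ranks below are a description and no support for a change. Its log2 values were 6.04, 6.01, 5.85 and 6.15 on KO/ERRb-wt arrays, 7.39, 7.38, 7.11 and 7.49 on KO/mock arrays, and 6.40, 6.35, 6.84 and 6.64 on WT/mock arrays. The groups did not overlap: KO/mock was highest, WT/mock intermediate and KO/ERRb-wt lowest. The means were 6.01 ± 0.12 in KO/ERRb-wt, 7.34 ± 0.16 in KO/mock and 6.56 ± 0.23 in WT/mock (SD, n = 4 arrays each). KO/mock exceeded WT/mock by 0.78 ± 0.12 (SE), which is 1.72-fold, with a gap of 0.27 between the nearest arrays. That was the rank 52 among the 22180 genes, counted from the highest difference. KO/ERRb-wt lay below KO/mock by a difference of -1.33 ± 0.12, or 2.52-fold, with a gap of 0.97, rank 4 counted from the lowest. KO/ERRb-wt also lay below WT/mock, by -0.55 ± 0.12 or 1.46-fold, with a gap of 0.21 and rank 884 from the lowest. Thus the KO/ERRb-wt arrays did not return to the WT/mock level but lay beneath it. KO/mock arrays enter the first and second of these comparisons, WT/mock arrays the first and the third and KO/ERRb-wt arrays the second and the third, so the 3 differences are not independent. In RNA from whole cultures, fewer cells making a transcript and less transcript per cell cannot be told apart.

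**Figure D1:**
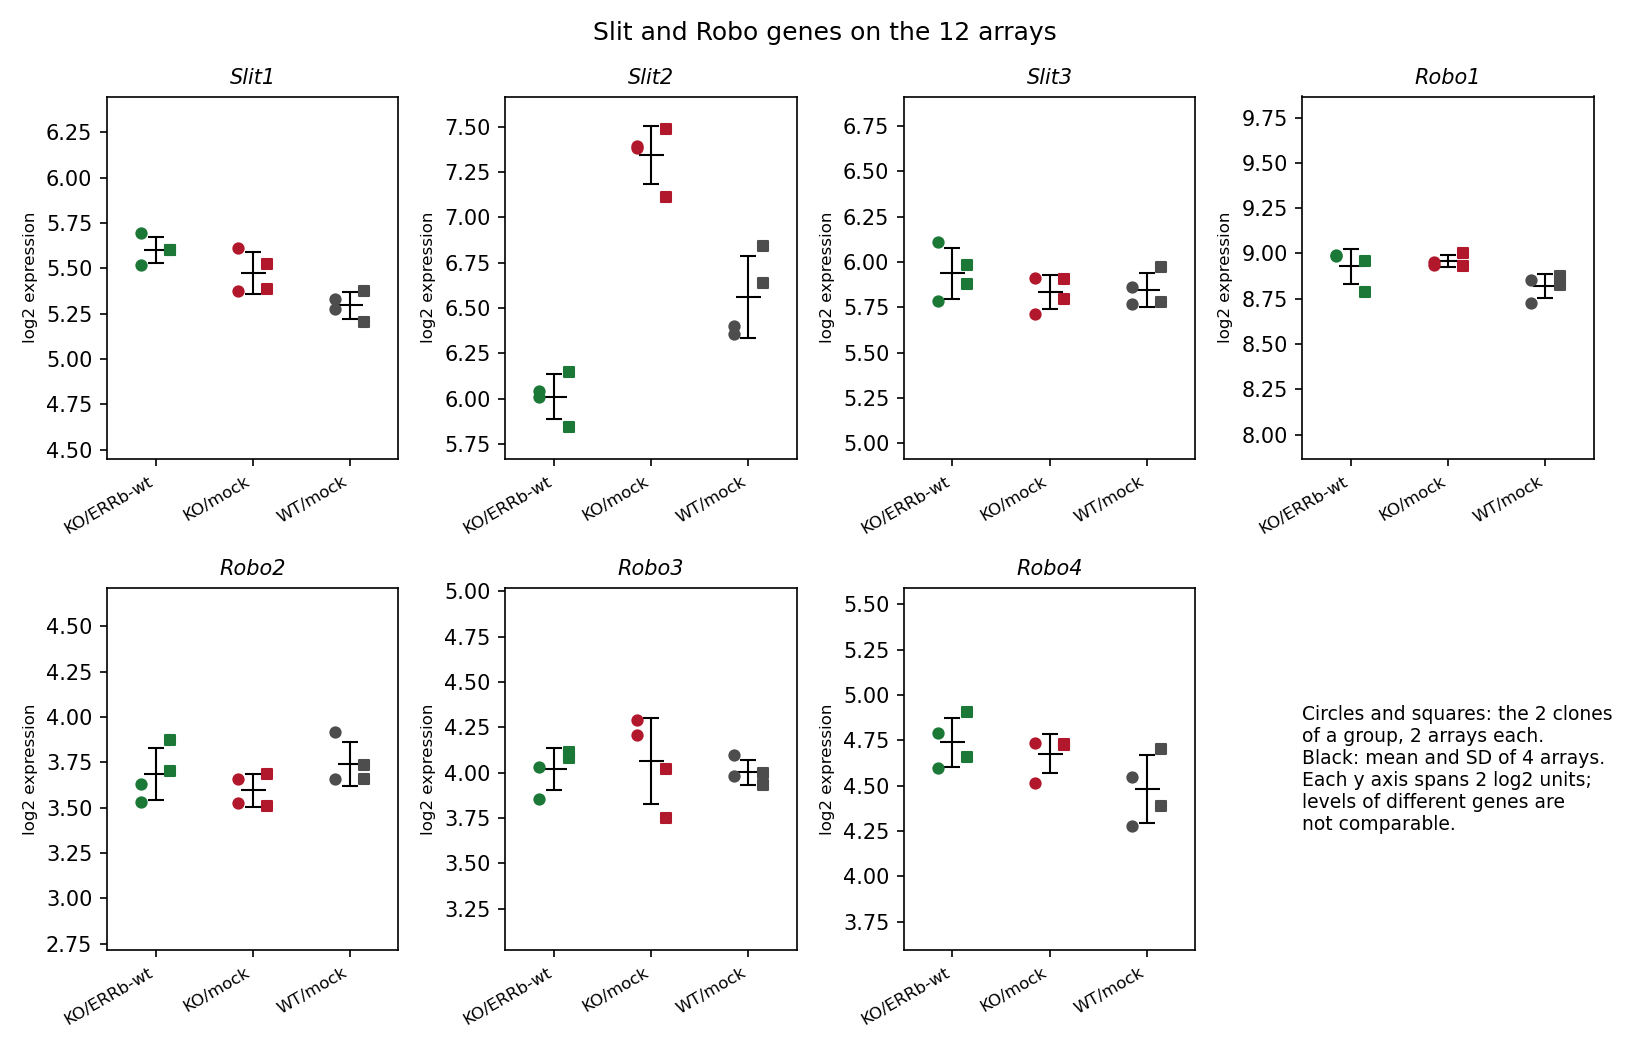
Log2 expression of the 7 Slit and Robo genes on the 12 arrays, by label; circles and squares are the 2 clones of a label, and the black mark and bar are the mean and SD of 4 arrays. Slit2 separates into 3 levels (means 6.01, 7.34 and 6.56 from left to right), while the other members stay within 0.31 between group means. Every y axis spans 2 log2 units.

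The clones bear on Slit2 in a way its choice did not use. Within KO/ERRb-wt, clone 12-3 minus clone 12-1 was -0.03 ± 0.14 (SE, adjusted p = 0.986), and within KO/mock, clone 8-4 minus clone 8-3 was -0.09 ± 0.14 (adjusted p = 0.945). Within WT/mock, clone 5-5 averaged 6.74 and clone 5-2 averaged 6.38, a difference of 0.37 ± 0.14 with an unadjusted p of 0.0325 and an adjusted p of 0.625. The WT/mock clones were therefore the least alike of the 3 pairs in Slit2, although the difference did not pass the test. The 28 fits, which left out arrays or clones or changed the scaling, placed Slit2 in KO/mock minus WT/mock between 0.60 and 0.97. KO/ERRb-wt minus KO/mock ranged from -1.41 to -1.28, and KO/ERRb-wt minus WT/mock from -0.73 to -0.37. Since Slit2 was chosen for these groups and its arrays do not overlap, its direction in these fits is no sign of stability.

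Slit1 and Slit3, the other ligands, moved little. Slit1 (chromosome 19) had 5.69, 5.52, 5.60 and 5.60 on KO/ERRb-wt arrays, 5.61, 5.37, 5.38 and 5.52 on KO/mock arrays, and 5.33, 5.28, 5.20 and 5.37 on WT/mock arrays. KO/ERRb-wt arrays all lay above WT/mock arrays, with a gap of 0.14, and KO/mock arrays cleared them only by the narrowest of margins. Slit1 rose in KO/ERRb-wt against WT/mock by 0.31 ± 0.07 (SE, 95% interval 0.15 to 0.46, 1.24-fold, adjusted p = 0.0126). This was the only one of the 6 tested members called in that comparison, 1 of 6 beside 20.8% of all genes (8.82% higher and 12.0% lower), so the family's share was not above the background. The call held without any single array (adjusted p up to 0.0364), but it ended without clone 5-2 or clone 12-3 (up to 0.0683) and with clone averages (0.064). KO/mock minus WT/mock was 0.18 ± 0.07 (adjusted p = 0.236) and KO/ERRb-wt minus KO/mock was 0.13 ± 0.07 (adjusted p = 0.364). By group mean Slit1 was highest in KO/ERRb-wt, where Slit2 was lowest. The KO/ERRb-wt and KO/mock arrays of Slit1 overlapped, however, and their difference was not called. The contrast between the 2 ligands was not itself tested.

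Slit3 (chromosome 11), known from the diaphragm, heart and vessels, overlapped in all groups. It read 6.11, 5.78, 5.98 and 5.88 on KO/ERRb-wt arrays, 5.91, 5.71, 5.91 and 5.80 on KO/mock arrays, and 5.86, 5.77, 5.78 and 5.97 on WT/mock arrays. The KO/mock minus WT/mock difference was -0.01 (95% interval -0.19 to 0.17, adjusted p = 0.972). KO/ERRb-wt differed from KO/mock by 0.11 (-0.08 to 0.29, adjusted p = 0.542) and from WT/mock by 0.09 (-0.09 to 0.28, adjusted p = 0.522). The interval of each leaves out a change of the size Slit2 had in the same comparison.

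Of the receptors, Robo1 (chromosome 16), the broadly expressed Slit receptor, was the only one whose probe set averaged above 5. It had 8.98, 8.99, 8.96 and 8.79 on KO/ERRb-wt arrays, 8.94, 8.95, 8.93 and 9.00 on KO/mock arrays, and 8.86, 8.73, 8.88 and 8.83 on WT/mock arrays. The KO/mock arrays did not overlap the WT/mock arrays, but by a gap of only 0.055, and the difference of 0.14 ± 0.06 was not called (adjusted p = 0.312). KO/ERRb-wt minus KO/mock was -0.03 (-0.16 to 0.11, adjusted p = 0.862), and KO/ERRb-wt minus WT/mock was 0.11 (-0.03 to 0.24, adjusted p = 0.291). With Robo1 near 9 in every group, the receptor's level stayed within a span of 0.28 over the 12 arrays while Slit2 spanned 1.64.

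Robo2 (chromosome 16), the other classical axon guidance receptor, gave 3.63, 3.53, 3.70 and 3.88 on KO/ERRb-wt arrays, 3.66, 3.53, 3.51 and 3.69 on KO/mock arrays, and 3.92, 3.66, 3.66 and 3.73 on WT/mock arrays. These are levels at the low end of the array's values, which began at 1.59, and no call of presence accompanies them. KO/mock minus WT/mock was -0.15 (adjusted p = 0.484). KO/ERRb-wt differed from KO/mock by 0.09 (adjusted p = 0.633) and from WT/mock by -0.06 (adjusted p = 0.743). All 3 groups overlapped.

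Robo3 (chromosome 9), the receptor of commissural axons, read 3.86, 4.03, 4.08 and 4.11 on KO/ERRb-wt arrays, 4.21, 4.29, 4.02 and 3.75 on KO/mock arrays, and 4.10, 3.98, 3.93 and 4.00 on WT/mock arrays. Its widest spread was inside KO/mock, where clone 8-4 averaged 3.89 and clone 8-3 averaged 4.25 (-0.36 ± 0.11, unadjusted p = 0.00978, adjusted p = 0.578). Between groups, KO/mock minus WT/mock was 0.06 (adjusted p = 0.857), and KO/ERRb-wt differed by -0.05 from KO/mock (adjusted p = 0.866) and by 0.02 from WT/mock (adjusted p = 0.936).

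Robo4 (chromosome 9), the receptor of endothelium, had 4.79, 4.60, 4.91 and 4.66 on KO/ERRb-wt arrays, 4.52, 4.74, 4.72 and 4.73 on KO/mock arrays, and 4.55, 4.28, 4.71 and 4.39 on WT/mock arrays. KO/ERRb-wt was above WT/mock by 0.26 ± 0.10, which did not pass (adjusted p = 0.122). Without replicate 1 of WT/mock clone 5-5, its highest WT/mock array, the adjusted p was 0.0464. Endothelial markers gave 3 of 6 called higher in the same comparison, beside 8.82% of all genes called higher. The list's array means were 5.42 to 5.57 on KO/ERRb-wt arrays and 5.16 to 5.33 on WT/mock arrays. The part of these markers in the Robo4 value was not tested. The other Robo4 differences were 0.20 (adjusted p = 0.395) for KO/mock minus WT/mock and 0.06 (0.799) for KO/ERRb-wt minus KO/mock.

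Over the 6 tested members, limma called 0 in KO/mock minus WT/mock, beside 5.58% of all genes (2.11% higher and 3.47% lower), with 1 at an unadjusted p under 0.05. It called 0 in KO/ERRb-wt minus KO/mock, beside 4.40% of all genes (1.24% higher and 3.17% lower), with 0 at an unadjusted p under 0.05. Of the calls over all genes in that comparison 28.0% were higher, with 40.2% after quantile normalization and 19.8% after median centring. In KO/ERRb-wt minus WT/mock limma called 1 of the members, with 2 at an unadjusted p under 0.05. The arrays of the groups were free of overlap for 2 of the 6 members in the first comparison (15.9% of all genes), 0 of 6 in the second (17.0%) and 1 of 6 in the third (28.5%). The median difference of the 6 was 0.10 beside 0.00 for all genes in KO/mock minus WT/mock, 0.08 beside 0.02 in KO/ERRb-wt minus KO/mock, and 0.10 beside 0.03 in KO/ERRb-wt minus WT/mock. Between the clones of a label no member was called, beside 0% of all genes in KO/ERRb-wt, 0.00902% in KO/mock and 0% in WT/mock. At an unadjusted p under 0.05 there were 0, 1 and 1 members in those labels.

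**Figure D2:**
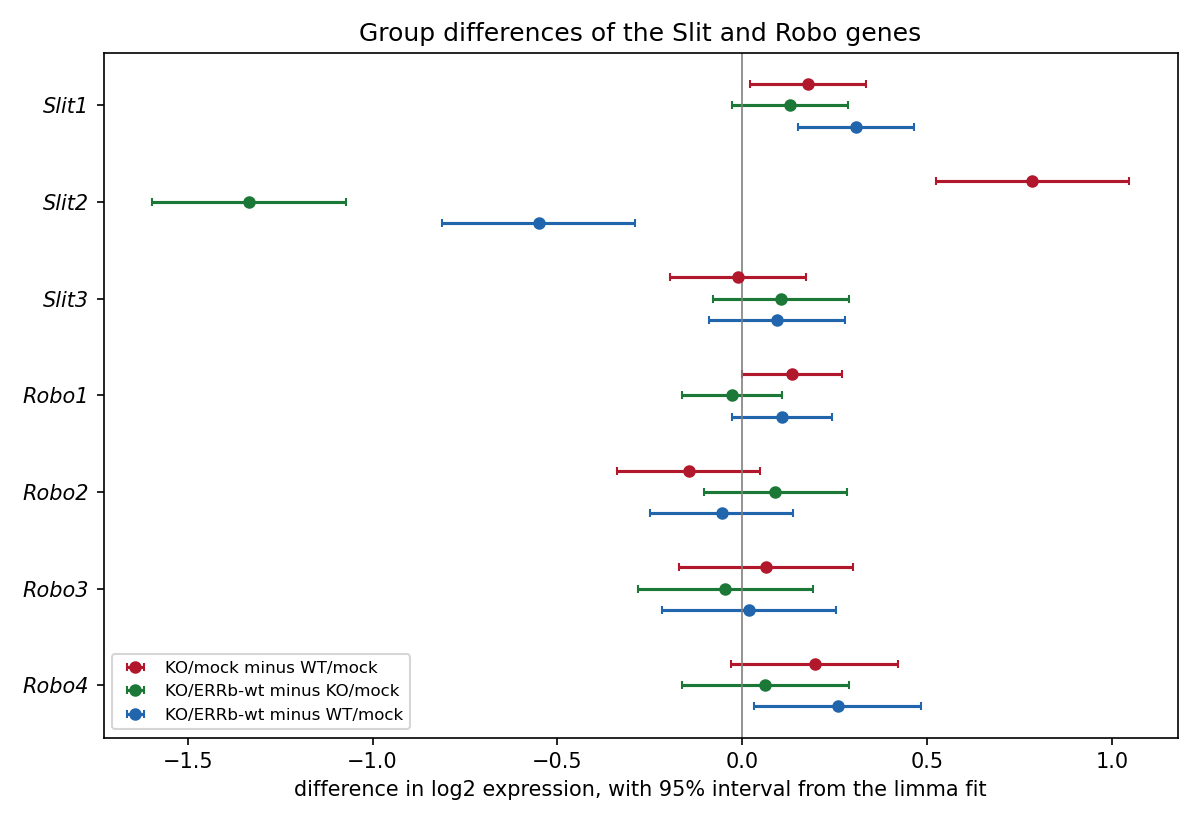
Differences in log2 expression of the 7 members in the 3 comparisons, with 95% intervals from the fit. Slit2 was chosen for its group values, so its differences (0.78, -1.33 and -0.55) are a description and its intervals are no test. Of the others, Slit1 in KO/ERRb-wt minus WT/mock (0.31) was called.

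The microRNA gene in the Slit2 intron was not called in any comparison. The Mir218-1 probe set, which may read the precursor as well as the mature forms printed above, had 3.93, 4.15, 3.71 and 4.23 on KO/ERRb-wt arrays, 3.66, 4.79, 3.95 and 3.45 on KO/mock arrays, and 3.92, 3.73, 4.03 and 4.53 on WT/mock arrays. The groups overlapped fully, and KO/mock alone ran from 3.45 to 4.79. The differences were -0.09 ± 0.27 for KO/mock minus WT/mock (95% interval -0.67 to 0.50, adjusted p = 0.930) and 0.04 ± 0.27 between KO/ERRb-wt and KO/mock (-0.54 to 0.62, adjusted p = 0.956). KO/ERRb-wt minus WT/mock was -0.05 ± 0.27 (-0.63 to 0.54, adjusted p = 0.937). The first 2 intervals do not reach the 0.78 and -1.33 of Slit2, whereas the last contains its -0.55. They are intervals of the probe-set values, and the probe set's mean of 4.00 was above that of only 23.5% of genes. A short RNA read by a long-RNA array near the low end of its values carries a wide error. A change in the RNA itself, also one of the size of Slit2, may therefore have gone undetected.

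Mir218-2, in Slit3, had 5.08, 4.33, 4.99 and 4.56 on KO/ERRb-wt arrays, 4.28, 4.44, 4.69 and 4.95 on KO/mock arrays, and 4.50, 4.63, 4.52 and 4.18 on WT/mock arrays. Its differences were 0.14 (adjusted p = 0.819), 0.15 (0.728) and 0.28 (0.366) for KO/mock minus WT/mock, KO/ERRb-wt minus KO/mock and KO/ERRb-wt minus WT/mock. Neither the host Slit3 nor this microRNA gene was called.

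Genes next to Slit2 on chromosome 5 were examined in RefSeq order, 3 on each side. Before Slit2 come Gm3414, Lcorl and Fam184b, and after it Pacrgl, Kcnip4 and 5730480H06Rik. Lcorl, which encodes a protein related to the nuclear receptor corepressor LCoR, was the single neighbour of the 6 called. Its call was in KO/ERRb-wt minus WT/mock, where 20.8% of all genes were called. It had 6.14, 6.17, 6.14 and 5.96 on KO/ERRb-wt arrays, 6.46, 6.74, 6.36 and 6.23 on KO/mock arrays, and 6.99, 7.21, 6.85 and 6.69 on WT/mock arrays. Lcorl fell in KO/ERRb-wt against WT/mock by -0.83 ± 0.12 (adjusted p = 0.000899), a call that held without any array or clone. Its order differed from that of Slit2: KO/mock lay between the other groups, at -0.49 against WT/mock (adjusted p = 0.0537) and with KO/ERRb-wt at -0.34 against KO/mock (adjusted p = 0.166). On the other side Pacrgl differed by 0.28 (adjusted p = 0.176), -0.03 (0.911) and 0.25 (0.125) in KO/mock minus WT/mock, KO/ERRb-wt minus KO/mock and KO/ERRb-wt minus WT/mock. None of the 6 neighbours was called in either of the first 2 of these comparisons, beside 5.58% and 4.40% of all genes. With so few genes, these counts do not set the neighbours apart from the background.

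**Figure D3:**
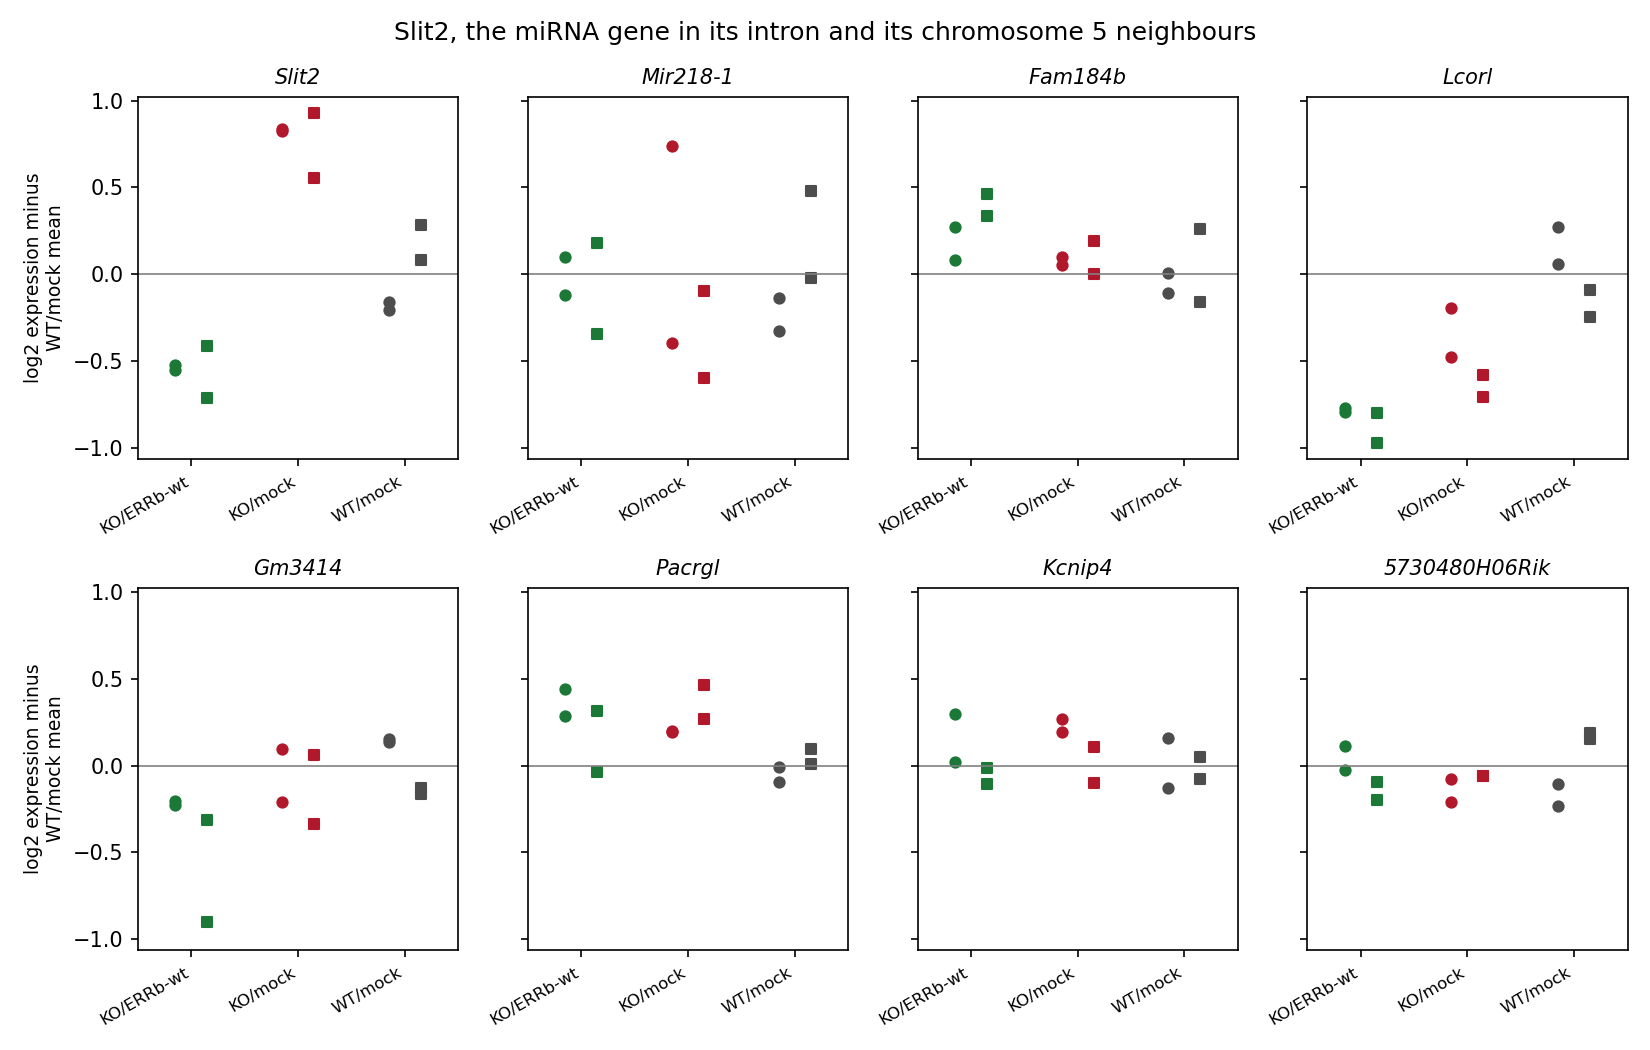
Log2 expression minus the WT/mock mean for Slit2, the miRNA gene in its intron and 6 neighbouring genes on chromosome 5; circles and squares are the 2 clones of a label. Slit2, which was chosen for its group values, alone among the 8 genes has KO/mock arrays all above and KO/ERRb-wt arrays all below the WT/mock arrays. Lcorl is lower in KO/ERRb-wt than in WT/mock by a difference of -0.83.

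The promoters of Slit2 and Robo1 are given because Slit2 had the largest group differences and Robo1 is the receptor whose probe set averaged above 5. RefSeq windows on build GRCm38.p6 run from 250 bases before the start to 50 after it, and 6 of the 7 members have at least 1 (Slit1 was not matched). The 250 bases before the start lie at chr5:47982905-47983154 for Slit2 and chr16:72662899-72663148 for Robo1, both on the plus strand. Capitals mark CG dinucleotides.
Slit2: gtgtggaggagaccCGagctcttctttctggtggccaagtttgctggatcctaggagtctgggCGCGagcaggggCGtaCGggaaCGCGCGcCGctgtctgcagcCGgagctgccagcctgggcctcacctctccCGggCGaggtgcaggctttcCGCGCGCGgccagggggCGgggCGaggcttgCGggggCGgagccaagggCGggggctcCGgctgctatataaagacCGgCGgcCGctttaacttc
Robo1: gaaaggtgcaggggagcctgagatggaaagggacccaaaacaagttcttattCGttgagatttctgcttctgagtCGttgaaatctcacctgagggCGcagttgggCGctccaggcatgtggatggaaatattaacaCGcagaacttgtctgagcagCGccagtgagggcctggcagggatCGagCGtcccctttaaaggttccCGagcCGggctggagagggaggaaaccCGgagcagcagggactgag
The Slit2 window holds 25 CG dinucleotides and the Robo1 window 11, beside a median of 6 over the 32851 windows, of which 10.7% hold at least 25 and 35.6% at least 11. Slit3 holds 35, and 2.97% of windows hold at least as many. The extended half-site TCAAGGTCA, a sequence bound by ERR receptors, was searched on both strands of the whole window. It was in 0 of the 8 windows of the members (Robo2 has 3) and in 0.423% of all windows. Its shorter core AGGTCA, which the longer motif contains, was in 1 of the 8, that of Robo4, and in 16.3% of all windows. These counts describe letters in short windows and say nothing of binding elsewhere.

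The genes that act below Robo receptors were read from a list of 22, of which 21 were measured. In KO/mock minus WT/mock 1 rose and 0 fell (4.76%), in KO/ERRb-wt minus KO/mock 0 rose and 2 fell (9.52%), and in KO/ERRb-wt minus WT/mock 3 rose and 3 fell (28.6%). All genes gave 5.58%, 4.40% and 20.8% in these comparisons. The median differences were 0.04, -0.07 and -0.04, beside 0.00, 0.02 and 0.03 for all genes. The Slit-Robo GTPase-activating proteins, which bind the Robo tail, were called in opposite directions. Srgap3 had 7.94, 8.10, 7.83 and 7.67 on KO/ERRb-wt arrays, 7.58, 7.48, 7.68 and 7.78 on KO/mock arrays, and 6.97, 7.14, 7.11 and 7.25 on WT/mock arrays. WT/mock arrays were all lower than the others. Srgap3 rose in KO/ERRb-wt against WT/mock by 0.77 ± 0.10 (adjusted p = 0.000376) without any array or clone ending the call, and in KO/mock against WT/mock by 0.51 ± 0.10 (adjusted p = 0.0149). The KO/mock call ended without replicate 1 of WT/mock clone 5-2 or replicate 2 of KO/mock clone 8-4 (up to 0.0543), without clone 5-2 or 8-4 (up to 0.171) and with clone averages (0.208).

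Srgap1 went the other way. It had 6.38, 6.43, 6.48 and 6.19 on KO/ERRb-wt arrays, 6.95, 7.44, 6.92 and 6.84 on KO/mock arrays, and 7.61, 7.48, 7.02 and 7.34 on WT/mock arrays. KO/ERRb-wt arrays were lowest, with no overlap with either other group. It fell in KO/ERRb-wt against WT/mock by -0.99 ± 0.15 (adjusted p = 0.000916, held without any array or clone) and against KO/mock by -0.67 ± 0.15 (adjusted p = 0.0359). The second call ended without any of the 4 KO/ERRb-wt arrays, either array of KO/mock clone 8-3 or replicate 2 of KO/mock clone 8-4 (up to 0.0937), without clones 8-3, 12-1 or 12-3 (up to 0.173), with clone averages (0.199) and with quantile normalization (0.054). Srgap2 was called at a smaller size in KO/ERRb-wt against WT/mock (0.20 ± 0.06, adjusted p = 0.0416). That call ended without any of 9 arrays, all but replicate 1 of WT/mock clone 5-2, replicate 2 of KO/mock clone 8-3 and replicate 2 of KO/ERRb-wt clone 12-3 (up to 0.0982), and without any clone (up to 0.198).

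Arhgap39, the mammalian relative of the fly Robo-binding protein Vilse, was the signalling gene called lower in KO/ERRb-wt than in KO/mock beside Srgap1. It had 7.96, 7.98, 8.11 and 7.90 on KO/ERRb-wt arrays, 8.28, 8.36, 8.29 and 8.33 on KO/mock arrays, and 8.10, 8.05, 8.16 and 8.20 on WT/mock arrays. KO/mock arrays were above all others. It fell in KO/ERRb-wt against KO/mock by -0.33 ± 0.06 (adjusted p = 0.0176), while KO/mock minus WT/mock was 0.19 ± 0.06 (adjusted p = 0.130) and KO/ERRb-wt minus WT/mock was -0.14 ± 0.06 (adjusted p = 0.161). The call ended without replicate 2 of KO/mock clone 8-3 or replicate 2 of KO/ERRb-wt clone 12-3 (up to 0.0523), without clone 8-3, 8-4, 12-1 or 12-3 (up to 0.123) and with clone averages (0.195). The remaining calls were all in KO/ERRb-wt against WT/mock: the Ras and Rac exchange factor Sos2 fell (-0.48, adjusted p = 0.00617), the kinase Abl2 rose (0.30, 0.0118) and the actin regulator Vasp fell (-0.30, 0.0140). Each held without any single array and ended without clone 5-2 (up to 0.108); Sos2 and Abl2 ended also without clone 12-3, and Vasp without clone 12-1.

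**Figure D4:**
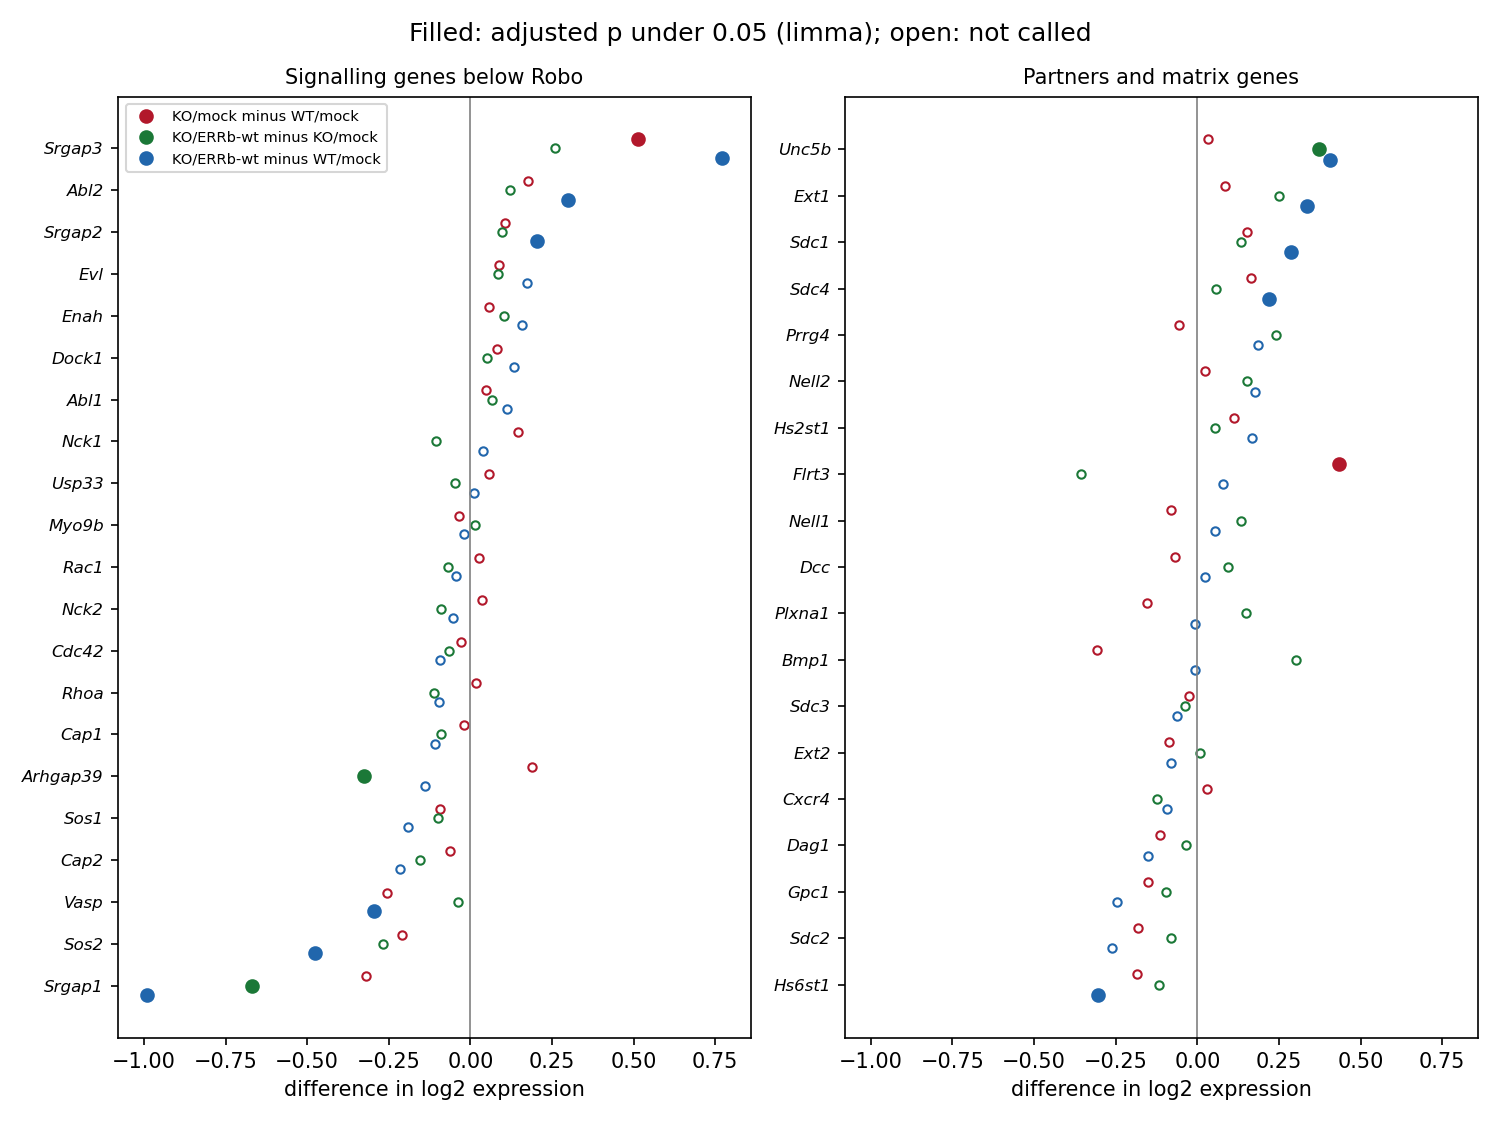
Differences in log2 expression of the 21 signalling genes and the 19 partner and matrix genes in the 3 comparisons, ordered by KO/ERRb-wt minus WT/mock. Filled points passed the test (adjusted p under 0.05) and open points did not; Srgap3 (0.77) and Srgap1 (-0.99) lie at opposite ends.

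Partners of Slits and Robos, and the heparan sulfate genes on which binding depends, gave 19 measured of 20 listed. In KO/mock minus WT/mock 1 rose and 0 fell (5.26%), in KO/ERRb-wt minus KO/mock 1 rose and 0 fell (5.26%), and in KO/ERRb-wt minus WT/mock 4 rose and 1 fell (26.3%), beside 5.58%, 4.40% and 20.8% of all genes. The median differences were -0.06, 0.06 and 0.02, beside 0.00, 0.02 and 0.03 for all genes. Flrt3, a membrane protein that binds Robo1, had 6.71, 6.87, 6.57 and 6.73 on KO/ERRb-wt arrays, 6.88, 7.17, 7.02 and 7.23 on KO/mock arrays, and 6.53, 6.68, 6.60 and 6.77 on WT/mock arrays. KO/mock arrays were highest, without overlap with either other group. Flrt3 rose in KO/mock against WT/mock by 0.43 ± 0.09 (adjusted p = 0.0247), and KO/ERRb-wt minus KO/mock was -0.36 ± 0.09 (adjusted p = 0.064). The Flrt3 call ended without either array of WT/mock clone 5-2, replicate 1 of WT/mock clone 5-5, replicate 2 of KO/mock clone 8-3 or either array of KO/mock clone 8-4 (up to 0.0895), without clone 5-2 or 8-4 (up to 0.184) and with clone averages (0.156).

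Unc5b, a netrin receptor that also binds Robo4, had 8.01, 8.04, 7.79 and 7.87 on KO/ERRb-wt arrays, 7.51, 7.61, 7.63 and 7.44 on KO/mock arrays, and 7.33, 7.64, 7.49 and 7.60 on WT/mock arrays. KO/ERRb-wt arrays were above all others. It rose in KO/ERRb-wt against WT/mock by 0.41 ± 0.09 (adjusted p = 0.00714) and against KO/mock by 0.37 ± 0.09 (adjusted p = 0.0396). The WT/mock call ended without clone 12-1 (0.0662). The KO/mock call ended without replicate 1 of WT/mock clone 5-5, either array of KO/mock clone 8-3, replicate 2 of KO/mock clone 8-4, either array of KO/ERRb-wt clone 12-1 or replicate 2 of KO/ERRb-wt clone 12-3 (up to 0.0988), and without clone 8-3, 8-4, 12-1 or 12-3 (up to 0.167).

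Of the measured heparan sulfate genes of the list, 4 passed in KO/ERRb-wt against WT/mock, while Ext2, Hs2st1, Gpc1, Sdc2 and Sdc3 did not. These genes are a part of the partner list and not a list of their own. The whole list had 26.3% called in that comparison, beside 20.8% of all genes. Hs6st1, which adds sulfate to heparan chains, fell by -0.30 ± 0.05 (adjusted p = 0.00287), held without any array or clone and ended with clone averages (0.0741). The chain-building enzyme Ext1 rose by 0.34 (adjusted p = 0.0124), the core protein Sdc1 by 0.29 (0.00941) and the core protein Sdc4 by 0.22 (0.0254). The calls of Ext1 and Sdc1 held without any single array and ended without clone 5-2 or 12-3, and for Ext1 without clone 12-1 (up to 0.123). The call of Sdc1 also ended with the mean of its probe sets (0.0788). Sdc4 lost its call without replicate 2 of WT/mock clone 5-2, replicate 2 of WT/mock clone 5-5 or either array of KO/ERRb-wt clone 12-1 (up to 0.0641), and without clone 5-2, 5-5 or 12-1 (up to 0.174).

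The other guidance families, netrins, semaphorins, plexins, ephrins and Eph receptors, gave 52 measured genes of 54. In KO/mock minus WT/mock 2 rose and 2 fell (7.69%), in KO/ERRb-wt minus KO/mock 3 rose and 1 fell (7.69%), and in KO/ERRb-wt minus WT/mock 8 rose and 4 fell (23.1%), against all-gene shares of 5.58%, 4.40% and 20.8%. The median differences were 0.01, 0.06 and 0.06, beside 0.00, 0.02 and 0.03 for all genes. Unc5b, Dcc and Plxna1 belong to this list and to the partner list, so the calls of Unc5b are counted in both. The netrin Ntn1, which attracts or repels axons through receptors that cross-talk with Robo, had 8.08, 8.31, 8.11 and 8.14 on KO/ERRb-wt arrays, 8.02, 8.06, 8.33 and 8.49 on KO/mock arrays, and 7.41, 7.18, 7.72 and 7.74 on WT/mock arrays. Both knockout-derived groups were above WT/mock. Ntn1 rose in KO/mock by 0.71 ± 0.14 (adjusted p = 0.0144) and in KO/ERRb-wt by 0.65 ± 0.14 (adjusted p = 0.00754) against WT/mock, and KO/ERRb-wt minus KO/mock was -0.06 (adjusted p = 0.857). The KO/mock call ended without replicate 1 of WT/mock clone 5-2 (0.0507), without clone 5-2 or 8-4 (up to 0.163) and when only these groups were fitted (0.0508), and the KO/ERRb-wt call without clone 5-2 or 12-1 (up to 0.0809). The semaphorin receptor Plxnb2 fell against WT/mock in KO/mock (-0.45, adjusted p = 0.00526) and in KO/ERRb-wt (-0.60, adjusted p = 0.000256). The KO/mock call of Plxnb2 ended without clone 5-2 or 8-4 (up to 0.0785), and the KO/ERRb-wt call held without any array or clone.

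The ephrin Efna3 fell against WT/mock in KO/mock (-0.49, adjusted p = 0.0182) and in KO/ERRb-wt (-0.43, adjusted p = 0.0123), and the semaphorin co-receptor Nrp2 rose in KO/mock (0.78, adjusted p = 0.0332). The KO/mock call of Efna3 ended without replicate 1 of WT/mock clone 5-2 or replicate 2 of KO/mock clone 8-4 (up to 0.0686) and without clone 5-5 or 8-4 (up to 0.163), and its KO/ERRb-wt call without clone 5-5 or 12-3 (up to 0.0814). The Nrp2 call ended without any array of WT/mock clone 5-2 or KO/mock clone 8-4 (up to 0.101), without either of those clones (up to 0.298) and when only these groups were fitted (0.0697). Epha7 fell in KO/ERRb-wt against KO/mock (-0.66 ± 0.09, adjusted p = 0.00480) and against WT/mock (-0.66 ± 0.09, adjusted p = 0.000707), with KO/mock at 0.00 against WT/mock (adjusted p = 0.992). Epha7 thus shared with Slit2 the low KO/ERRb-wt level but not the high KO/mock level. Its KO/mock call ended without clone 8-3 or 12-3 (up to 0.0562).

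The repellent Sema3e had 4.55, 4.79, 4.36 and 4.32 on KO/ERRb-wt arrays, 3.69, 3.66, 3.90 and 3.87 on KO/mock arrays, and 3.91, 4.03, 4.12 and 4.15 on WT/mock arrays. The order was the reverse of that of Slit2 and without overlap, but KO/mock and WT/mock arrays were only 0.0049 apart. Sema3e rose in KO/ERRb-wt against KO/mock by 0.72 ± 0.11 (adjusted p = 0.00538) and against WT/mock by 0.45 ± 0.11 (adjusted p = 0.0128). KO/mock minus WT/mock was -0.27 and was not called (adjusted p = 0.223). The 2 Sema3e calls ended without clone 8-3 (0.0872) and without clone 5-2 or 12-1 (up to 0.127), and the Sema3e probe set is a dim one. The Eph receptor Epha1 rose in KO/ERRb-wt against WT/mock (0.58, adjusted p = 0.000432, held without any array or clone) and against KO/mock (0.32, adjusted p = 0.0466). The KO/mock call of Epha1 ended without any of 10 arrays, all but replicate 2 of WT/mock clone 5-2 and replicate 2 of KO/ERRb-wt clone 12-3 (up to 0.109), and without clone 8-3, 8-4, 12-1 or 12-3 (up to 0.178). Against WT/mock, KO/ERRb-wt was also higher in the ephrin Efnb2 (0.84, adjusted p = 0.00359, held without any array or clone) and the receptor Epha2 (0.55, adjusted p = 0.00657, ended without clone 5-2 at 0.0736).

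Markers of other cell types, among them cells that make Slits in the body, were read as lists. Floor-plate markers (6 genes) averaged 5.07 to 5.22 on KO/ERRb-wt arrays, 4.88 to 5.05 on KO/mock arrays and 5.00 to 5.11 on WT/mock arrays, with 0, 0 and 1 called in the 3 comparisons. Neuroectoderm markers (7 measured) averaged 5.62 to 5.74 on KO/ERRb-wt arrays, 5.52 to 5.68 on KO/mock arrays and 5.60 to 5.74 on WT/mock arrays, with 1, 1 and 3 called. These counts are for KO/mock minus WT/mock, KO/ERRb-wt minus KO/mock and KO/ERRb-wt minus WT/mock, where 5.58%, 4.40% and 20.8% of all genes were called. The following members were named after their values were seen. The neuronal tubulin Tubb3 averaged 7.91 in KO/ERRb-wt, 7.24 in KO/mock and 7.21 in WT/mock, and the transcription factor Lmx1b averaged 7.00, 6.75 and 6.72 in the same groups. Tubb3 rose in KO/ERRb-wt against KO/mock (0.67, adjusted p = 0.0207) and against WT/mock (0.71, adjusted p = 0.00347), and Lmx1b rose against WT/mock (0.28, adjusted p = 0.0131). The neural factor Sox1 fell against WT/mock in KO/mock (-0.62, adjusted p = 0.0240) and in KO/ERRb-wt (-0.67, adjusted p = 0.00514). The KO/ERRb-wt calls of Tubb3 and Sox1 against WT/mock held without any array or clone, and that of Lmx1b ended without clone 5-2, 5-5 or 12-3 (up to 0.129). The Tubb3 call against KO/mock ended without replicate 1 of KO/mock clone 8-3 or replicate 2 of clone 8-4 (up to 0.0588) and without clone 8-3, 12-1 or 12-3 (up to 0.139). The Sox1 call in KO/mock ended without replicate 1 of clone 5-2, 5-5 or 8-3 or replicate 2 of clone 8-4 (up to 0.0857) and without any of these 4 clones (up to 0.124). The part of these genes in the Slit2 values was not tested. The list averages describe the arrays and do not tell which cells held Slit2 transcript. The fibroblast, primitive endoderm and mesoderm lists averaged 4.59 to 5.54 on all arrays. In the same 3 comparisons they gave 1, 2 and 2 calls among their 21 measured genes, beside the same shares of all genes. The array gives no call of presence, so none of these markers can be stated to be at 0.

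Genes whose values ran most like those of Slit2 over the 12 arrays were ranked by Pearson's r among the 9761 genes with a mean of at least 6. The arrays share labels and clones, so r is largely set by the group means and is a description. The transcription factor Tfap2a came first (r = 0.96), with 7.61, 7.71, 7.62 and 7.79 on KO/ERRb-wt arrays, 8.23, 8.12, 7.99 and 8.28 on KO/mock arrays, and 7.83, 7.68, 7.91 and 7.91 on WT/mock arrays. Its values were low on KO/ERRb-wt arrays and high on KO/mock arrays, with WT/mock between and overlapping KO/ERRb-wt. The lipid enzyme Lpcat4 (0.96), the ribonucleotide reductase subunit Rrm2 (0.94), Csrp2 (0.93), the DNA polymerase subunit Pole2 (0.93), the adaptor Crk (0.93), the receptor kinase Kit (0.92) and Snapc1 (0.92) followed. Taken on deviations from the group means, which the ranking already includes, r for these 8 genes ran from 0.02 (Csrp2) to 0.81 (Tfap2a). These likeness values place genes together only in the direction of change: KO/ERRb-wt minus KO/mock was -0.47 ± 0.08 for Tfap2a, -0.49 ± 0.07 for Kit and -0.15 ± 0.05 for Rrm2, against -1.33 for Slit2.

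The genes most opposite to Slit2 were the mechanically gated channel Piezo1 (r = -0.94), the phosphatase Ptp4a3 (-0.93), the potassium channel Kcnd1 (-0.93) and the pseudokinase receptor Ptk7 (-0.92). Piezo1 had 9.00, 9.10, 9.09 and 8.84 on KO/ERRb-wt arrays, 8.44, 8.46, 8.61 and 8.49 on KO/mock arrays, and 9.04, 8.98, 8.83 and 8.88 on WT/mock arrays. It was low on KO/mock arrays and overlapped between the other groups, so it did not mirror the difference of Slit2 between KO/ERRb-wt and WT/mock. For Robo1, the genes most like it were Pan3 (0.93), Akap13 (0.92), Sgtb (0.88), Tfam (0.88), Nbas (0.88), Mtor (0.87), Gapvd1 (0.87) and Scaf8 (0.87), and the most opposite were Emid1 (-0.89), Cln6 (-0.86), Slc39a11 (-0.84) and Krt8 (-0.82). On deviations from the group means, r was 0.91 for Pan3 and 0.92 for Akap13, and replicate 2 of KO/ERRb-wt clone 12-3 was the lowest KO/ERRb-wt array for Robo1, Pan3 and Akap13 alike. None of the genes named for likeness to Slit2 was among those named for Robo1.

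**Figure D5:**
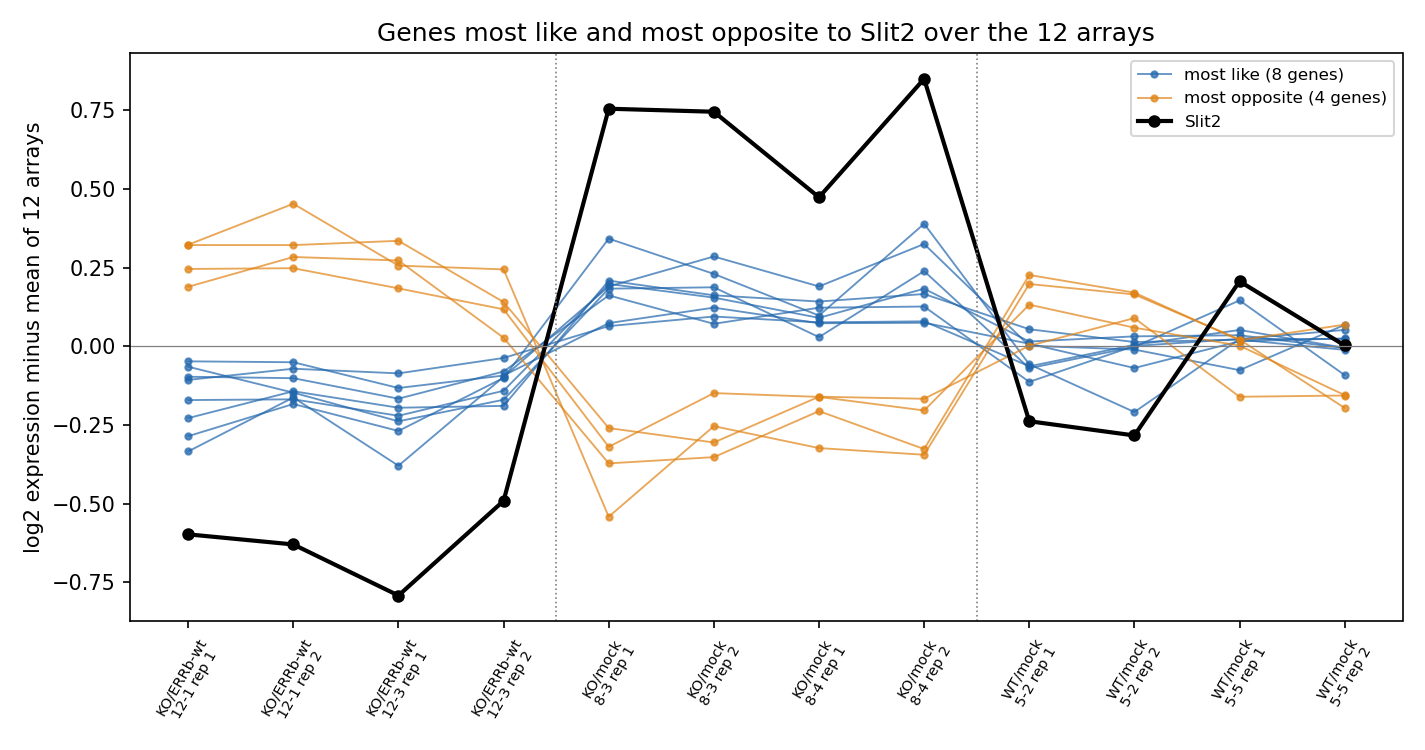
Log2 expression minus the mean of the 12 arrays for Slit2 (black), the 8 genes most like it and the 4 most opposite, by array; lines join arrays for reading only. The like genes share the direction of Slit2 at smaller size, and the opposite genes are lowest on KO/mock arrays.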

How the data were processed

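RNA was labelled with biotin and hybridised to whole-transcript arrays, 1 array a sample. The authors deposited log2 values made by RMA (background correction, a common distribution over arrays and a summary per probe set) with the program Affymetrix Expression Console, as the submitters' processing notes list it; its version and the genome build are not described in the sources used here. The table holds 41345 probe sets on 12 arrays with no detection calls, so the number of arrays limits the precision. Of these, 23521 are annotated to 1 symbol, 1814 to several and 16010 to none, and a gene was read by its 1-symbol probe set with the highest mean. The main test was limma 3.58.1 (R 4.3.3) on the deposited log2 values of all arrays, with group as the term and clone as a random block (consensus correlation 0.0286). It was two-sided with Benjamini-Hochberg adjustment over all probe sets, and called at an adjusted p under 0.05. The code was tested on simulated data. Alternatives were no clone block, clone averages, median centring, quantile normalization, a trended robust prior, dim probe sets left out (mean under 5), the mean of a gene's probe sets, only the compared groups, a replicate block, and arrays or clones left out. Members and lists were chosen with earlier results of these data known. Named were Esrrb, the members, miR-218 genes, up to 8 called genes per list and comparison with the smallest adjusted p, 3 neighbours on each side of Slit2, and the 8 genes most like and 4 most opposite to Slit2 and to Robo1, the receptor with the highest probe-set mean; predicted, RIKEN and non-coding models were not named as like. Replicate numbers run within a clone, and the main test did not pair arrays by them.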

Additional observations from a re-analysis of the deposited data

Results flagged for a closer look

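In 15 of 186 groups of 4 arrays (62 named genes in 3 groups), 1 array lay far from the other 3. For independent, unselected genes chance alone flags about 1 in 20 such groups. The named genes are neither, since some were picked by correlation with Robo1 or Slit2, so the count cannot be set against that share. Of the 15, 9 came from KO/ERRb-wt clone 12-3 replicate 2, an array whose overall distance from its group was not larger than that of the others. Robo1 was far on this array, and genes picked for likeness to it are among the 9, so that number comes partly from the choice of genes.

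Among the members, Robo1 on that array was 8.79 with the others of KO/ERRb-wt at 8.96 to 8.99, and Robo4 on KO/mock clone 8-3 replicate 1 was 4.52 with the others at 4.72 to 4.74. Without those arrays neither gene was called in any comparison. On KO/ERRb-wt clone 12-3 replicate 2, the genes named for likeness to Robo1 gave Sgtb 7.49, Gapvd1 8.56 and Krt8 7.56, with Sgtb and Gapvd1 below and Krt8 above the other 3 arrays. The same array was far in Sdc1 (7.21), Epha1 (8.89), Gm3414 (5.59), Lcorl (5.96) and Ptp4a3 (8.48). Abl2 was far on KO/ERRb-wt clone 12-3 replicate 1 (8.18). Efna3 was low on WT/mock clone 5-2 replicate 2 (7.63). On KO/mock clone 8-3 replicate 2, 5730480H06Rik was 4.27, Crk 8.37 and Krt8 7.30.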

How the results depend on the processing

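Members called in KO/ERRb-wt minus WT/mock (1, Slit1) were 0 with clone averages and without clone 5-2 or 12-3, and 1 to 2 when 1 array was left out, the second being Robo4. In the other comparisons 0 members were called in every fit. Clone averages leave 6 values and few degrees of freedom, and leaving out a clone leaves a group resting on 1 clone. Robo2, Robo3 and Robo4 have no value with dim probe sets left out. Where the construction of a fit does not show why a value moved, the cause was not tested.

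Uncalled differences near 0 turned sign. Without clone 5-5, Mir218-1 was 0.14 in KO/mock minus WT/mock and 0.18 in KO/ERRb-wt minus WT/mock, Slit3 was 0.0171 in KO/mock minus WT/mock and Robo3 was -0.0183 in KO/ERRb-wt minus WT/mock. Without clone 8-4, Mir218-1 was 0.17 in KO/mock minus WT/mock and -0.22 in KO/ERRb-wt minus KO/mock, and Mir218-2 was -0.0931 in KO/mock minus WT/mock. Without clone 8-3, Mir218-2 was -0.0824 and Robo3 0.13 in KO/ERRb-wt minus KO/mock, and Robo3 was -0.12 and Slit3 0.00809 in KO/mock minus WT/mock. Without clone 12-3, Robo1 was 0.0300 and Robo2 -0.0145 in KO/ERRb-wt minus KO/mock, and Robo3 was -0.0584 in KO/ERRb-wt minus WT/mock. Without clone 12-1, Robo3 was 0.0320 in KO/ERRb-wt minus KO/mock and Robo2 0.0485 in KO/ERRb-wt minus WT/mock. Quantile normalization gave Robo1 0.00758 in KO/ERRb-wt minus KO/mock and Robo3 -0.0298 in KO/ERRb-wt minus WT/mock, and median centring gave Robo3 -0.0187 in the same comparison. With 1 array left out, KO/mock minus WT/mock ranged from -0.36 to 0.0821 for Mir218-1, from -0.00976 to 0.17 for Robo3 and from -0.0384 to 0.0303 for Slit3. KO/ERRb-wt minus KO/mock ranged from -0.13 to 0.31 for Mir218-1, from -0.0473 to 0.0201 for Robo1 and from -0.15 to 0.0287 for Robo3. KO/ERRb-wt minus WT/mock ranged from -0.15 to 0.11 for Mir218-1, from -0.12 to 0.00345 for Robo2 and from -0.0109 to 0.0743 for Robo3.

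Counts of list genes called moved as follows. Of the signalling list, KO/mock minus WT/mock (1) gave 0 with clone averages and without clone 5-2 or 8-4, 2 with dim probe sets left out and 2 with the trended robust prior, and 0 to 1 with 1 array left out. Its KO/ERRb-wt minus KO/mock count (2) was 0 with clone averages and without clone 12-1, 12-3 or 8-3, 1 with quantile normalization and without clone 8-4, and 0 to 2 with 1 array left out. Its KO/ERRb-wt minus WT/mock count (6) was 2 with clone averages and without clone 5-2, 3 without clone 12-3, and 10 with dim probe sets left out and with the trended robust prior. Of the partner list, KO/mock minus WT/mock (1) gave 0 with clone averages and without clone 5-2 or 8-4, 2 with dim probe sets left out and with the trended robust prior, and 0 to 1 with 1 array left out. Its KO/ERRb-wt minus KO/mock count (1) was 0 with clone averages, with only these groups fitted and without clone 12-3 or 8-3, 2 without clone 8-4, 3 with dim probe sets left out and with the trended robust prior, and 0 to 2 with 1 array left out. Its KO/ERRb-wt minus WT/mock count (5) was 0 with clone averages, 2 without clone 12-1 or 5-2, 3 without clone 12-3, and 8 with dim probe sets left out and with the trended robust prior. Of the other guidance genes, KO/mock minus WT/mock (4) gave 0 with clone averages and without clone 8-4, 1 without clone 5-2, 2 with only these groups fitted, and 1 to 5 with 1 array left out. Their KO/ERRb-wt minus KO/mock count (4) was 0 with clone averages and without clone 8-3, 1 without clone 12-3, 2 with median centring, with only these groups fitted and without clone 12-1, and 2 to 4 with 1 array left out. Their KO/ERRb-wt minus WT/mock count (12) was 3 with clone averages and 7 without clone 5-2.

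The labels do not say whether arrays with the same replicate number share a source across clones. The differences between replicates 2 and 1 correlated at -0.04 to 0.14 between clones, above 0.1 in 1 of 15 pairs, which does not settle it. With the replicate block the partner list gave 2 calls in place of 1 in KO/ERRb-wt minus KO/mock, and genes called were 1182, 911 and 4651 in place of 1238, 977 and 4617.

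Over all genes, KO/mock minus WT/mock gave 3 calls with clone averages, 804 with only these groups, 400 and 418 without clones 5-2 and 8-4, and 682 to 1421 with 1 array left out, under 1238 by more than 1.5 times without either array of clone 5-2 or 8-4. KO/ERRb-wt minus KO/mock gave 0 with clone averages, 553 with only these groups, 106 without clone 8-3, 244 without clone 12-3, 453 without clone 12-1, and 406 to 1008 with 1 array left out, under 977 by more than 1.5 times without either array of clone 8-3 or 12-3 or replicate 2 of clone 8-4. KO/ERRb-wt minus WT/mock gave 1501 with clone averages, and 2369 and 2918 without clones 5-2 and 12-3. The guidance genes Plxnc1, Efnb3 and Efna1, called in KO/ERRb-wt minus WT/mock but beyond the 8 named, are not in the following counts. Of the 35 calls of named list genes, Slit1, Esrrb and Lcorl, 24 held without any single array and 9 also without any clone. With clone averages 7 held: Srgap3, Srgap1, Plxnb2, Epha7, Epha1, Lcorl and Esrrb in KO/ERRb-wt minus WT/mock. With only the compared groups fitted, and with median centring, the calls of Srgap2 and Sdc4 in KO/ERRb-wt minus WT/mock and of Unc5b and Epha1 in KO/ERRb-wt minus KO/mock ended.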
